A study of Homo sapiens with 12 samples.

Results

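The mitosis and G2/M genes described here are 40 protein-coding genes that act in mitotic entry, the spindle checkpoint, chromosome segregation and cell division. The rule is a list of gene symbols and uses no measured value, although the list was drawn up with earlier results of these data known. All 40 symbols were found among the 58735 genes of the deposited count table, and all 40 were among the 17115 genes that passed the filter on low counts and were tested.

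Messenger RNA was sequenced from HEK293 cells, a line derived from human embryonic kidney cells and common in protein and vector production. The series is about modified HEK293 cells for making biologics such as adeno-associated virus vectors. The 4 groups of 3 libraries were wild-type adherent, EXT1 knockdown adherent, wild-type suspension and EXT1 knockdown suspension cells. EXT1 is a glycosyltransferase that builds heparan sulfate chains. All cells had gone through 5 passages and were kept at 37 °C and 5% CO2. Adherent cells grew in T75 flasks in DMEM with FBS and were trypsinized at harvest, and suspension cells were shaken at 120 rpm in EX-CELL 293, a medium without serum, so that attachment, medium, serum, shaking and harvest cannot be told apart. The labels give neither the way EXT1 was knocked down, nor whether the knockdown line is 1 clone, nor whether replicates came from separate cultures, and p-values therefore speak only to variation among the 12 libraries, possibly technical.

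In a dividing cell, cyclin A and cyclin B bind CDK1, and the CDC25 phosphatases switch the kinase on at the end of G2. The spindle checkpoint then holds the anaphase-promoting complex in check until every chromosome is attached, after which securin and cyclin B are destroyed, separase cuts cohesin and the cell divides. Transcripts of many of these genes are known to accumulate in G2 and mitosis, under the MuvB complex with B-MYB and FOXM1 acting through the CHR element (cell cycle genes homology region) and NF-Y acting through the CCAAT box.

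Since this control acts at promoters, windows were read from RefSeq (GRCh38.p14), from 250 bases before to 50 bases after each start, for the 33 members that the promoter table holds, in 43 windows. BIRC5, TPX2, UBE2C, TTK, FOXM1, BUB3 and AURKA have no window there. The last 150 bases before the start are printed 5′ to 3′ on the gene's strand for 6 members that show how the windows vary, chosen after matches and expression values had been seen. Capitals mark TTTGAA, the common CHR letters, and CCAAT or its reverse complement ATTGG.
CCNB2 (chr15:59104996-59105145, plus strand): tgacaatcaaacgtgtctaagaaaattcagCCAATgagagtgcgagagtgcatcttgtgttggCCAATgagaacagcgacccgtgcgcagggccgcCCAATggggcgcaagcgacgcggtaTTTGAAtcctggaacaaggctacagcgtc
PLK1 (chr16:23678739-23678888, plus strand): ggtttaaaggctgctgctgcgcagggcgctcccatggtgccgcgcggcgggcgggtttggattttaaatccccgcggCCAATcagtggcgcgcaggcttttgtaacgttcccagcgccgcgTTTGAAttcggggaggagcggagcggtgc
INCENP (chr11:62123861-62124010, plus strand): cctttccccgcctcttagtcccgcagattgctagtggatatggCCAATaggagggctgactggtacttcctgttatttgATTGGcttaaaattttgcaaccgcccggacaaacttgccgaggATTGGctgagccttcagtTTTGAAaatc
PTTG1 (chr5:160421705-160421854, plus strand): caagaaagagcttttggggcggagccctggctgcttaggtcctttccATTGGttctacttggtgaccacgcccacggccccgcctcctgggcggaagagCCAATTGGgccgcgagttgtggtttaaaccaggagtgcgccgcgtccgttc
NUSAP1 (chr15:41332731-41332880, plus strand): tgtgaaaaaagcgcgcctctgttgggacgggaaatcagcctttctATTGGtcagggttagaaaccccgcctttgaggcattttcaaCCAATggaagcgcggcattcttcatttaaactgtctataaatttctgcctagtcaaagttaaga
KIF2C (chr1:44739687-44739836, plus strand): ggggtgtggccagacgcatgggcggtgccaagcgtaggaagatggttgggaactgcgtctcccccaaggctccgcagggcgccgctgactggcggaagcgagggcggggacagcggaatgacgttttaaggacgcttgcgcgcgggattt
CCNB2 holds 3 CCAAT boxes in the printed stretch, at -120, -87 and -54, and TTTGAA at -29, counted from the start to the first base of the match. PLK1 has TTTGAA at the same distance behind a single CCAAT at -73. INCENP has TTTGAA at -10 and 3 boxes, the nearer pair of them on the reverse strand. PTTG1 shows 3 boxes, of which the last pair overlaps as CCAATTGG, and NUSAP1 shows a box on each strand. KIF2C shows no match in the printed bases or elsewhere in its windows, nor does CENPE.

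Searched on both strands, TTTGAA or TTCGAA was present in a window of 26 of the 33 members (78.8%), against 19.5% of the 27305 genes with a window. TTCGAA is its own reverse complement and was counted once per place. CCAAT was found in 27 of the 33 members (81.8%), against 39.7% of all genes, and both motifs in 66.7% of members against 9.02% of all genes. At least 2 CCAAT boxes stood in the windows of 51.5% of members and of 12.9% of all genes. TTTGAA lay within 50 bases of the start in 22 of the 43 member windows, compared with 4.62% of all 35116 windows, and 30 of the 36 TTTGAA matches read on the gene's own strand. CCAAT lay between -120 and -40 in 25 of the 43 windows, against 17.2% of all windows. A match describes letters only, and no binding was measured. RefSeq's starts can differ from the outer gene bounds of the deposited table.

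**Figure D1:**
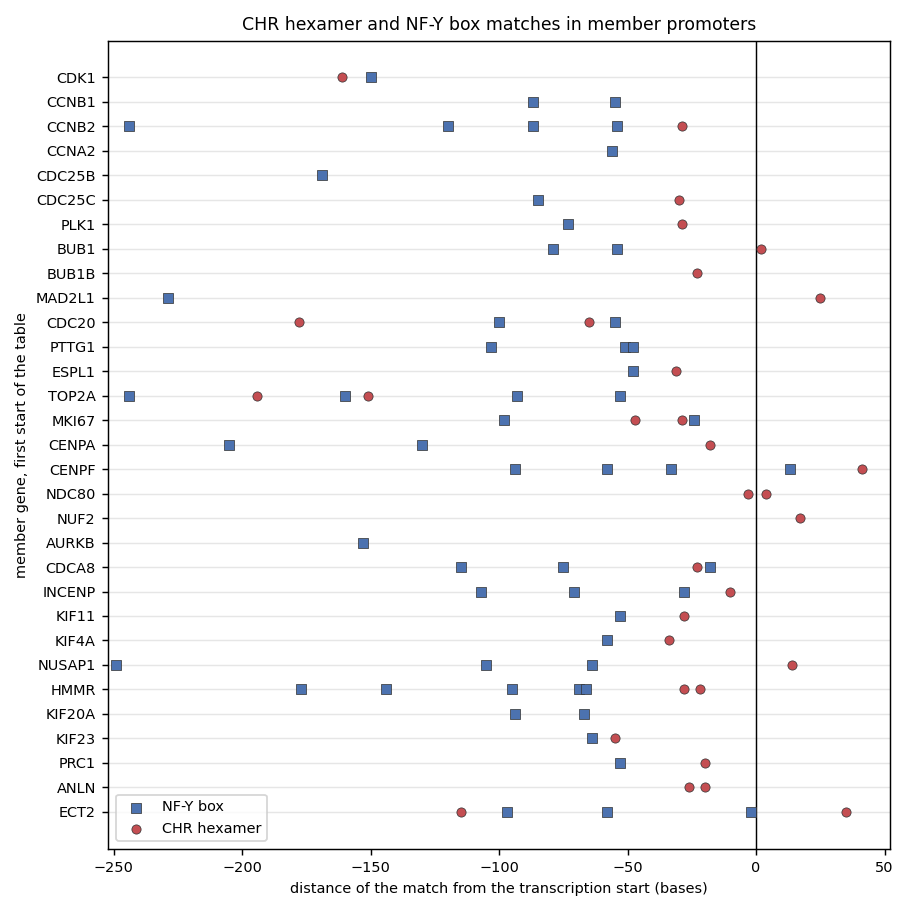
Places of the CHR hexamer (TTTGAA or TTCGAA, circles) and the NF-Y box (CCAAT, squares) on either strand in the first promoter window of the 31 members with a match there, in bases from the transcription start. The squares gather between -120 and -40 and many circles lie within 50 bases of the start.

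Reads assigned to genes ran from 13.9 to 21.4 M per library, and members took 0.67 to 0.752% of them. The member with the fewest reads, PRC1, had at least 55 reads in each library, and each of the others had at least 159. EXT1, the targeted gene, stood 4.34-fold below wild type in attached knockdown cells (-2.12 on the log2 scale, adjusted p = 5.67e-12 by edgeR's quasi-likelihood test) and 3.48-fold below it in suspension (-1.80, adjusted p = 4.77e-11). The wild-type adherent libraries differed most among themselves: the median coefficient of variation of the members was 8.42% there, against 3% in wild-type suspension, 4.06% in adherent knockdown and 5.24% in suspension knockdown cells. In that group replicate 2 was highest for 20 of the 40 members and replicate 3 lowest for 27. The 7 HEK293 reference genes (NEFL, NEFM, INA, PAX2, LIN28B, HMGA2 and CD24) together reached 445 to 606 CPM (read counts scaled to library size, with TMM factors). The 8 leukocyte markers summed to 0.761 to 2.02 CPM and the 5 endothelial markers to 1.4 to 3.71 CPM. The sum of 10 fibroblast markers was 19.8 to 23 CPM in wild-type adherent cells and 30.3 to 36.8 CPM in the other groups, and the sum of 7 carcinoma epithelium markers, mainly keratins, was 366 to 437 CPM in wild-type adherent and 555 to 566 CPM in adherent knockdown cells. No marker of these lists was at 0 reads in all libraries, and the part of these shifts in the results below was not tested.

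Summed over all 40 members, wild-type adherent libraries held 7217, 7807 and 6896 CPM and adherent knockdown libraries held 6991, 6819 and 6855 CPM. Wild-type suspension libraries held 6964, 6959 and 7116 CPM and suspension knockdown libraries 6473, 6603 and 6457 CPM. On this TMM-scaled measure (factors 0.965 to 1.04) the adherent groups overlapped, whereas the suspension knockdown libraries lay below every other library. This order depended on scaling. By share of assigned reads, without TMM factors, the lowest library was adherent knockdown replicate 2, at 0.67%. In such bulk RNA, fewer cells in G2 or mitosis and less of these transcripts per cell cannot be told apart.

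Per gene length, the most abundant member was TOP2A, the topoisomerase that untangles sister chromatids, with a mean of 143 FPKM (reads per kilobase of gene length, scaled to library size) over the 12 libraries. CCNB1 (cyclin B1) followed at 98.5 FPKM, CDC20, the activator of the anaphase-promoting complex, at 93.8 FPKM and the spindle assembly factor TPX2 at 77.6 FPKM. At the lower end stood the phosphatase CDC25C at 8.73 FPKM, the microtubule-binding NUSAP1 at 4.88 FPKM and the midzone cross-linker PRC1 at 0.9 FPKM. The values of PRC1 and NUSAP1 are uncertain, because their reads can be shared with overlapping annotation on their own strand. AC068831.7 covers 99.5% of the span of PRC1. AC087721.2, an entry with 0 reads, covers 99.4% of the span of NUSAP1. CENPA shares 46.1% of its span with SLC35F6 on its own strand. Opposite-strand neighbours with at least 5% as many reads overlap CCNA2 (EXOSC9), CDC25C (FAM53C), FOXM1 (RHNO1 and ITFG2), KIF20A (CDC23 and BRD8), KIF4A (PDZD11), NUF2 (RGS5) and ANLN (KIAA0895), and the strand setting of the counting is not given in the sources used here.

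**Figure D2:**
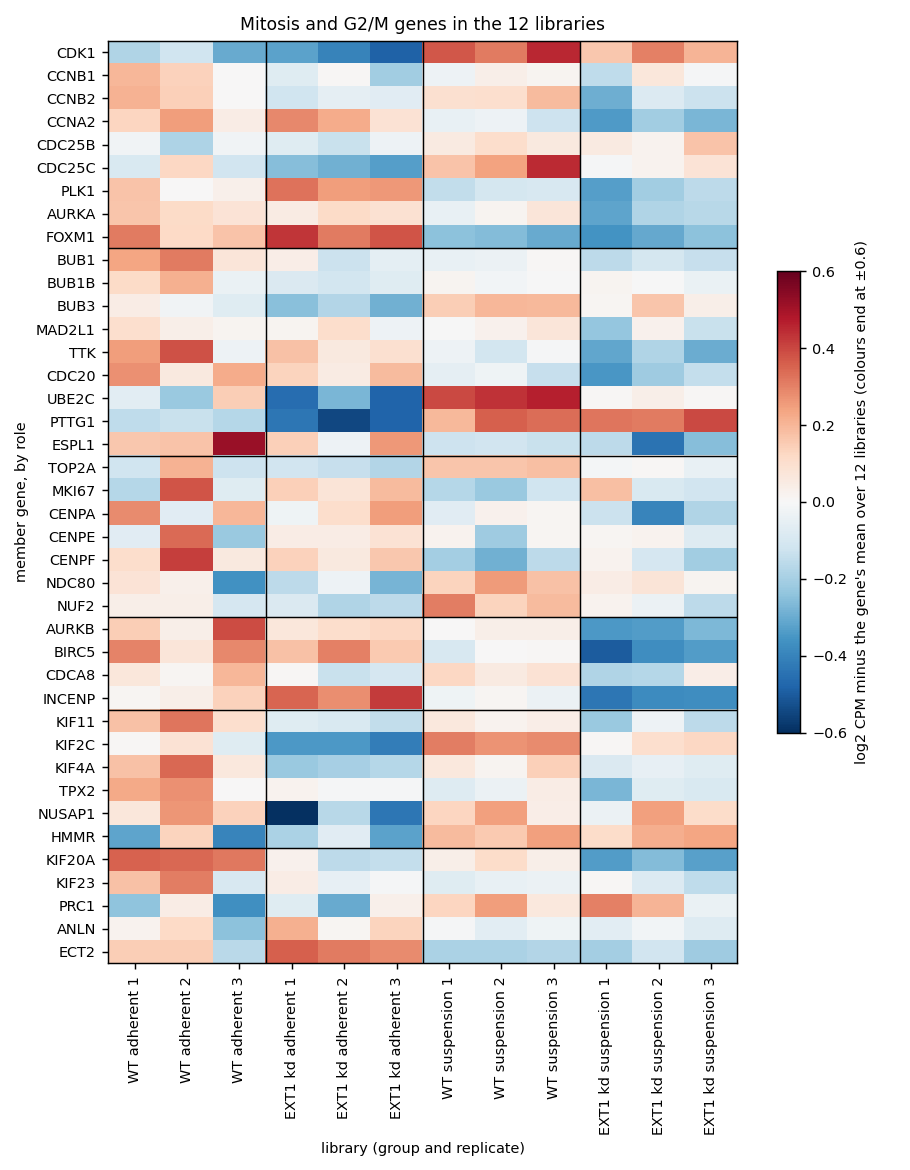
Log2 CPM of each of the 40 members (rows, by role) in each of the 12 libraries (columns), minus the gene's mean over the 12 libraries. Within each line CDK1, UBE2C, PTTG1, KIF2C and HMMR are redder in suspension than in adherent columns, and FOXM1 and ECT2 are bluer. NUSAP1 is bluest in the adherent knockdown columns.

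The comparison of knockdown with wild-type cells in adherent culture asks what goes with lower EXT1 in attached cells. NUSAP1, KIF20A, KIF4A, KIF2C and KIF11, which bind or move along spindle microtubules, were lower in the knockdown, by 1.47-fold, 1.35-fold, 1.31-fold, 1.30-fold and 1.24-fold. The ubiquitin-conjugating enzyme UBE2C and the securin PTTG1 were lower as well, and INCENP, ECT2 and PLK1 were higher. Of the 40 members 3 rose and 13 fell at an adjusted p under 0.05, which is 40% of them, while 27.1% of all genes tested passed (15.2% higher, 11.8% lower) and 33.6% of the genes averaging 5 CPM or more. The members' median log2 fold change was -0.12, against -0.01 for all genes. Groups did not overlap for 17 members, against 36.1% of all genes. Without adherent knockdown replicate 1 or replicate 3 the count was 10 instead of 16, while 17.9% and 18.4% of all genes passed. From a fit of the 6 adherent libraries alone the count was 9, while 19.2% of all genes passed. With scaling to library totals alone 4 members rose and 9 fell, while 26.8% of all genes passed.

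NUSAP1, which binds and bundles spindle microtubules (ENSG00000137804, chromosome 15, 41332694 to 41381050, GRCh38), was at 14.6, 16.7 and 15.3 CPM in wild-type adherent libraries and at 9.16, 12.4 and 10.3 CPM in the knockdown ones. The groups did not overlap (log2 fold change -0.55, SE 0.12, adjusted p = 0.00244). KIF20A, a kinesin of the central spindle needed for cytokinesis, stood at 147, 146 and 143 CPM against 117, 103 and 104 CPM. Every knockdown library was lower than every wild-type library (-0.43, SE 0.06, adjusted p = 8.88e-05). For KIF4A, a chromosome-bound kinesin that works with PRC1 at the midzone, the libraries read 145, 163 and 134 CPM against 110, 112 and 114 CPM (-0.39, SE 0.07, adjusted p = 0.000435). KIF2C, which removes tubulin from microtubule ends at centromeres, read 104, 110 and 98.4 CPM against 81.5, 81.6 and 77.6 CPM (-0.38, SE 0.07, adjusted p = 0.00033). Neither kinesin's groups overlapped. KIF11, which pushes the spindle poles apart, fell by 0.31 on the log2 scale (SE 0.07, adjusted p = 0.00253). Of the 6 spindle genes 0 rose and 4 fell, with a median of -0.34, and TPX2 (-0.17) and HMMR (-0.02), a partner of TPX2 at the poles, did not pass.

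Among the 9 checkpoint and anaphase genes 0 rose and 5 fell. UBE2C, the ubiquitin-conjugating enzyme that works with the anaphase-promoting complex, was at 69.9, 62.6 and 81 CPM against 53.2, 60.5 and 52.4 CPM (-0.37, SE 0.09, adjusted p = 0.00387). The highest knockdown library stayed just below the lowest wild-type library. PTTG1, the securin that restrains separase, fell from 83.4, 84.4 and 82.3 CPM to 68.6, 63.5 and 66.5 CPM (-0.33, SE 0.07, adjusted p = 0.00127), with a clear gap between the groups. The checkpoint proteins BUB1 (-0.26), BUB3 (-0.22) and BUB1B (-0.19) were lower too, with adjusted p-values between 0.00929 and 0.044. The call of BUB1B was lost under 15 of 23 alternatives, that of BUB3 under 4 and that of BUB1 under 2. MAD2L1 (-0.02), TTK (-0.10), CDC20 (-0.06) and the separase ESPL1 (-0.16) did not pass.

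Of the 9 entry genes 1 rose and 3 fell. CDK1, the kinase that drives entry into mitosis, was at 184, 192 and 169 CPM against 167, 158 and 149 CPM in the knockdown, groups that did not overlap by a small margin (-0.20, SE 0.07, adjusted p = 0.0392). CCNB1 read 291, 279 and 254 CPM against 241, 255 and 219 CPM, and its groups overlapped (-0.20, SE 0.07, adjusted p = 0.0471). CDC25C, an activating phosphatase of CDK1, fell by 0.27 (SE 0.09, adjusted p = 0.0404). These calls lay close to the threshold: that of CDK1 was lost under 14 of 23 alternatives, that of CCNB1 under 15 and that of CDC25C under 11. PLK1, a kinase of entry, centrosomes and cytokinesis, was at 207, 184 and 188 CPM against 230, 219 and 220 CPM in knockdown libraries. Here the knockdown libraries were all higher (0.21, SE 0.07, adjusted p = 0.0247), and the call was lost under 6 of 23 alternatives. CCNB2 (-0.20, adjusted p = 0.0514), CCNA2 (0.06), CDC25B (0.00), AURKA (-0.04) and the transcription factor FOXM1 (0.17, adjusted p = 0.0668) did not pass.

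INCENP, the scaffold of the chromosomal passenger complex (ENSG00000149503, chromosome 11, 62123973 to 62153163), was at 128, 130 and 140 CPM in wild-type adherent and at 162, 154 and 170 CPM in adherent knockdown libraries (0.29, SE 0.06, adjusted p = 0.00201). ECT2, the exchange factor that activates RhoA for the contractile ring, was at 140, 140 and 113 CPM against 162, 157 and 154 CPM (0.27, SE 0.08, adjusted p = 0.0113). In both genes every knockdown library was higher than every wild-type library. Other passenger subunits, AURKB (-0.10), BIRC5 (-0.01) and CDCA8 (-0.17), did not pass, nor did the cytokinesis genes KIF23 (-0.14), ANLN (0.15) and PRC1 (0.08). All 7 genes of chromosomes and kinetochores missed the threshold, with log2 fold changes from -0.14 for TOP2A to 0.07 for MKI67, the proliferation marker Ki-67. MKI67 read 532, 780 and 570 CPM in wild-type libraries and 662, 634 and 684 CPM in knockdown libraries, so that replicate 2 alone placed the wild-type range around the knockdown values. Without that library MKI67 was 0.26 higher in the knockdown (adjusted p = 0.0146).

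Median changes differed between chromosomes. The median log2 fold change of knockdown in adherent culture was 0.29 over 630 genes of chromosome 11, where INCENP lies, and 0.26 over 646 genes of chromosome 3, where ECT2 lies. With each chromosome's median removed, 2 members rose and 9 fell, or 11 in place of 16, while 17.5% of all genes tested passed in place of 27.1%. INCENP was then at 0.00 (adjusted p = 0.973) and ECT2 at 0.02 (adjusted p = 0.866), while PLK1 stayed higher (0.29, adjusted p = 0.00473) and FOXM1 passed (0.26, adjusted p = 0.00884). Of the lower members, CDK1 (-0.17, adjusted p = 0.104), CCNB1 (-0.06, adjusted p = 0.62), CDC25C (-0.12, adjusted p = 0.4), BUB1 (-0.15, adjusted p = 0.146), BUB1B (-0.05, adjusted p = 0.644) and PTTG1 (-0.19, adjusted p = 0.059) no longer passed. MAD2L1 (-0.26, adjusted p = 0.0122) and TOP2A (-0.26, adjusted p = 0.0242) passed as lower in addition. The spindle genes NUSAP1 (-0.42), KIF20A (-0.29), KIF4A (-0.26) and KIF2C kept their calls.

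In suspension culture the same comparison gave lower values for the passenger complex. BIRC5, INCENP and AURKB were 1.29-fold, 1.30-fold and 1.26-fold lower, next to UBE2C (1.33-fold) and KIF20A (1.29-fold). Of the 40 members 0 rose and 11 fell, or 27.5%, against 20.9% of all genes tested (8.29% higher, 12.6% lower) and 24.5% of the genes averaging 5 CPM or more. The median member was at -0.15, against 0.00 for all genes. By position of the libraries alone, 23 members had every knockdown library below every wild-type library and 1 member, MKI67, had every one above, while 43.8% of all genes had groups that did not overlap (23.8% lower, 20% higher). Without wild-type suspension replicate 2 or replicate 3, or suspension knockdown replicate 1, 7, 6 and 6 members fell, while 12.6%, 13.6% and 14% of all genes passed.

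UBE2C was at 96.1, 98.7 and 101 CPM in wild-type suspension and at 73.5, 74.9 and 73.4 CPM in suspension knockdown libraries. The replicates of each group lay close together and the gap between the groups was wide (-0.42, SE 0.08, adjusted p = 0.00187). KIF20A read 118, 124 and 118 CPM against 91.2, 96 and 91.8 CPM (-0.37, SE 0.07, adjusted p = 0.000618). BIRC5, the passenger subunit also known as survivin, read 197, 211 and 212 CPM against 149, 163 and 167 CPM (-0.37, SE 0.07, adjusted p = 0.00142). All knockdown libraries of both genes were below all wild-type libraries. INCENP went from 125, 128 and 124 CPM to 94, 97.9 and 98.1 CPM (-0.38, SE 0.06, adjusted p = 0.000402). AURKB, the complex's kinase, went from 123, 126 and 126 CPM to 96.9, 97.4 and 102 CPM (-0.34, SE 0.08, adjusted p = 0.00409). CDCA8, the subunit borealin, was at -0.19 and did not pass (adjusted p = 0.0866), so that 3 of the 4 passenger genes fell, with a median of -0.36.

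Of the entry genes, CCNB2 (-0.30), CDC25C (-0.26), AURKA (-0.23) and CCNA2 (-0.21) fell, with adjusted p-values from 0.00855 for CCNB2 to 0.0498 for CDC25C. The call of CCNA2 was lost under 16 of 23 alternatives, RLE scaling and DESeq2 among them, that of CDC25C under 18, that of AURKA under 4 and that of CCNB2 under 2. CDK1 was at 270, 259 and 285 CPM against 233, 257 and 240 CPM and missed the threshold, although its groups did not overlap (-0.16, SE 0.07, adjusted p = 0.113). CCNB1 (-0.03), PLK1 (-0.11), FOXM1 (-0.04) and CDC25B (0.01) did not pass. NUF2, a subunit of the NDC80 complex that grips microtubules, fell by 0.27 (SE 0.08, adjusted p = 0.0176), whereas NDC80 itself was at -0.14 and did not pass (adjusted p = 0.307). Among spindle genes KIF2C fell by 0.21 (SE 0.06, adjusted p = 0.0262), a call lost under 9 of 23 alternatives, and KIF11 (-0.17), KIF4A (-0.15), TPX2 (-0.12), NUSAP1 (-0.03) and HMMR (-0.01) did not pass. TOP2A read 1040, 1040 and 1050 CPM against 917, 929 and 898 CPM, without overlap, and missed the threshold (-0.19, SE 0.08, adjusted p = 0.0897). It passed without wild-type adherent replicate 2 or replicate 3, or when only the suspension libraries were fitted.

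Chromosome medians again differed: that of chromosome 11 was -0.23 and that of chromosome 17, which holds AURKB, BIRC5 and TOP2A, was -0.12. With them removed, 0 members rose and 8 fell, while 12.8% of all genes tested passed in place of 20.9%. INCENP (-0.15, adjusted p = 0.135), AURKB (-0.22, adjusted p = 0.062), AURKA (-0.15, adjusted p = 0.133) and CDC25C (-0.27, adjusted p = 0.0557) no longer passed and KIF11 did (-0.22, adjusted p = 0.0427), while BIRC5 (-0.26, adjusted p = 0.0261), UBE2C (-0.33, adjusted p = 0.0143) and KIF20A (-0.38, adjusted p = 0.000746) did.

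**Figure D3:**
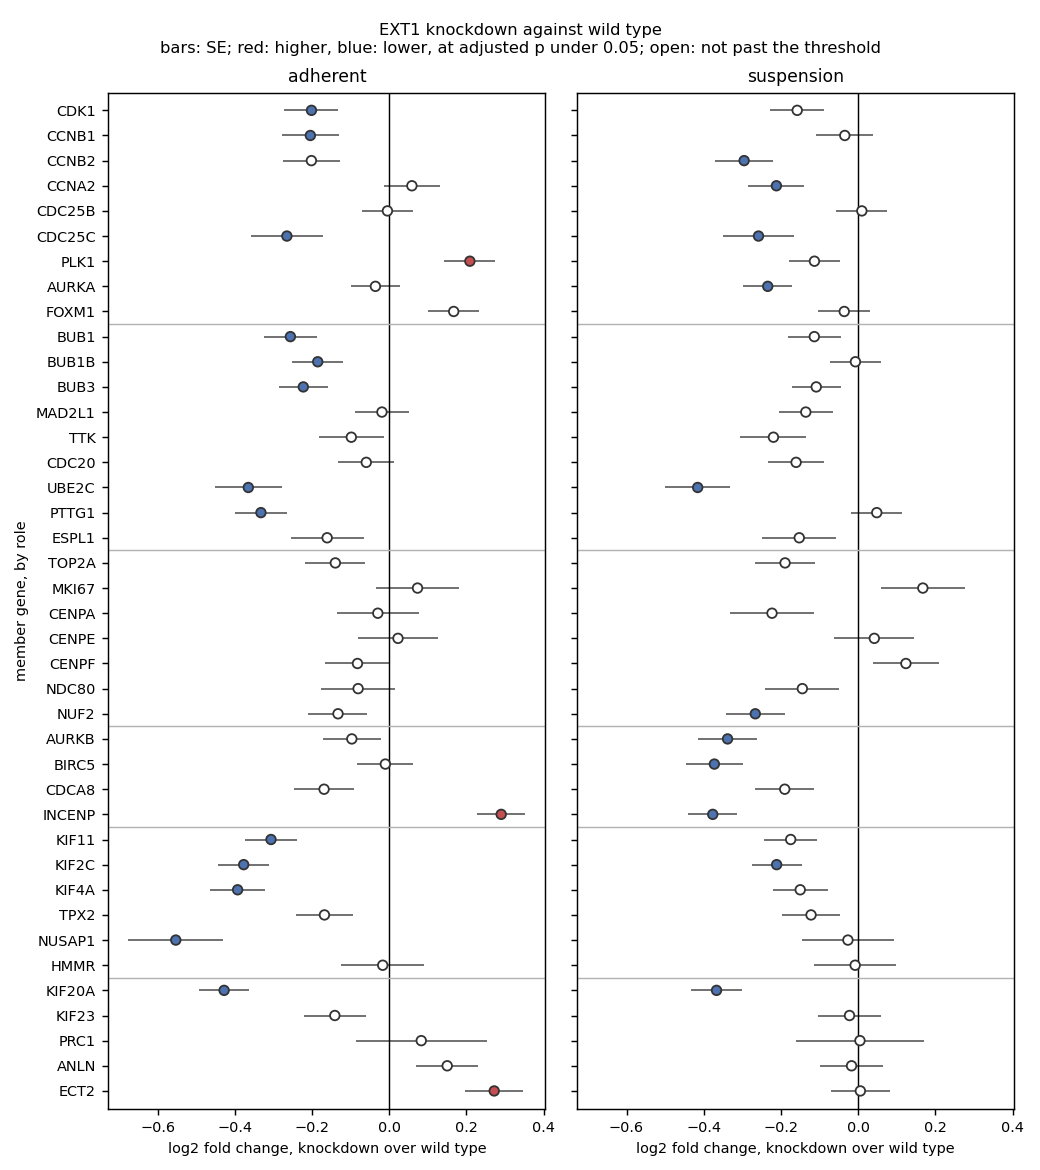
Log2 fold change of knockdown over wild type in adherent (left) and suspension culture (right) for the 40 members, with the SE as bars and filled points for those past an adjusted p of 0.05. The left panel has 3 red and 13 blue points and the right panel 0 red and 11 blue points, with INCENP red on the left and blue on the right.

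The knockdown comparisons of the cultures share no libraries. CDC25C, UBE2C, KIF2C and KIF20A were lower in both, which is 4 of the 40 members, 4 of the 13 that fell in adherent cells and 4 of the 11 that fell in suspension. Among all genes tested 331 (1.93%) were lower in both, of 2024 that fell in adherent cells and 2158 that fell in suspension. With chromosome medians removed UBE2C, KIF2C, KIF20A and KIF11 were the members lower in both. Genes lower in both under that setting were not counted over all genes. For CDC25C the call in suspension, at an adjusted p of 0.0498, was lost under 18 of 23 alternatives, and those of UBE2C and KIF20A were kept under all 23 in each culture. INCENP was called in opposite directions. The difference between the knockdown effects, that in suspension minus that in adherent culture, passed for 5 members, or 12.5%, against 24% of all genes tested (9.45% higher, 14.6% lower) and 28.6% of the genes averaging 5 CPM or more. It was 0.53 for NUSAP1 (SE 0.17, adjusted p = 0.0315), 0.38 for PTTG1 (SE 0.09, adjusted p = 0.00672), -0.32 for PLK1 (SE 0.09, adjusted p = 0.0177), -0.36 for BIRC5 (SE 0.10, adjusted p = 0.0154) and -0.67 for INCENP (SE 0.09, adjusted p = 3.5e-05).

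In suspension NUSAP1 read 15.2, 16.5 and 14.3 CPM without and 13.6, 16.5 and 15 CPM with the knockdown, so that of the 4 groups the adherent knockdown alone stood low. PTTG1 read 106, 119 and 117 CPM against 116, 115 and 122 CPM, overlapping ranges, after being lower in the adherent knockdown. PLK1 read 166, 171 and 172 CPM against 146, 159 and 165 CPM, the reverse order of the adherent libraries. BIRC5 was alike in the adherent groups, at 259, 222 and 257 CPM in wild-type libraries and 238, 260 and 235 CPM in knockdown libraries, and parted in suspension. The median of chromosome 11 for this difference was -0.50. With chromosome medians removed 2 members passed, PLK1 (-0.48, adjusted p = 0.00181) and FOXM1 (-0.34, adjusted p = 0.02), and INCENP was at -0.15 (adjusted p = 0.283), PTTG1 at 0.23 (adjusted p = 0.124), NUSAP1 at 0.37 (adjusted p = 0.164) and BIRC5 at -0.13 (adjusted p = 0.463). Of all genes tested 14.2% passed with the medians removed, in place of 24%. The count of members was 8 without wild-type adherent replicate 3, where 28.9% of all genes passed. It was 3 without adherent knockdown replicate 1, adherent knockdown replicate 3 or suspension knockdown replicate 1, where 17.9%, 18.7% and 20.2% of all genes passed.

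**Figure D4:**
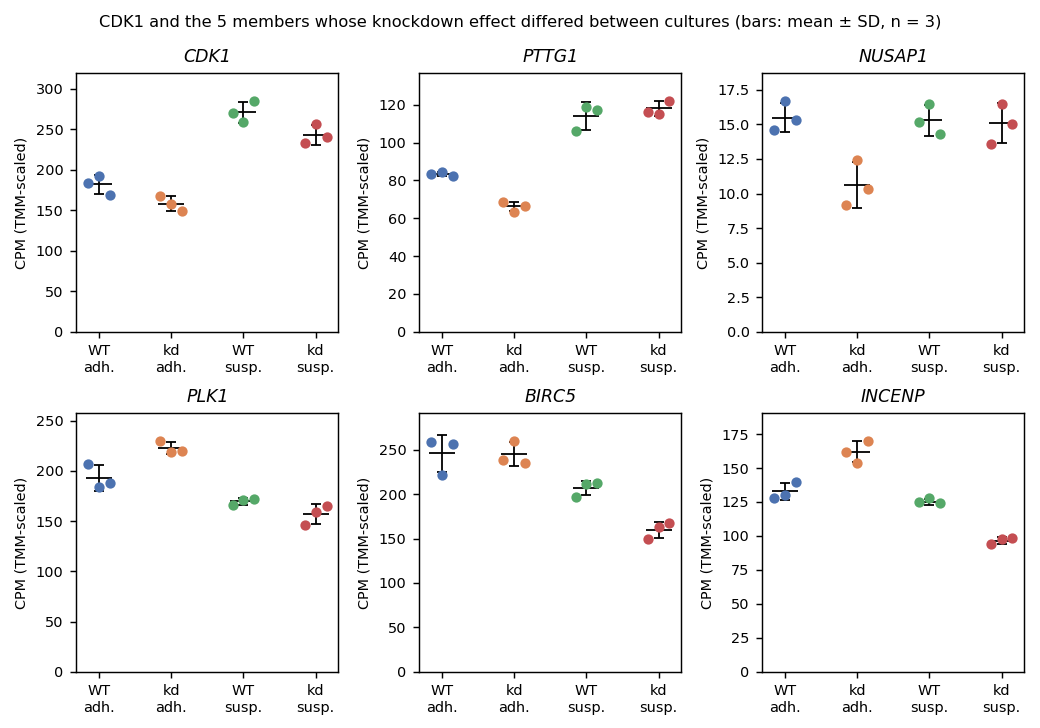
CPM of CDK1 and of the 5 members whose knockdown effect differed between cultures, by group, with 1 point per library and the mean ± SD (n = 3) in black. CDK1 is higher in both suspension groups, NUSAP1 is low in adherent knockdown cells alone, and INCENP is highest in adherent knockdown and lowest in suspension knockdown cells.

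Suspension against adherent culture divided the members. In wild-type cells CDK1 rose 1.49-fold, UBE2C 1.38-fold and PTTG1 1.37-fold in suspension, while FOXM1 fell 1.39-fold and ESPL1 and CENPF each fell 1.34-fold. Of the 40 members 9 rose and 13 fell, or 55%, against 55.7% of all genes tested (27.7% higher, 28% lower) and 62.7% of those averaging 5 CPM or more. In knockdown cells 9 rose and 14 fell, or 57.5%, against 55.7% of all genes (26.8% higher, 29% lower) and 63.5% of those averaging 5 CPM or more, so that both shares were near the background. The libraries did not overlap for 24 members in wild type and 30 in the knockdown, against 58.8% and 63.8% of all genes. The split depended on scaling: with library totals alone it was 11 higher and 9 lower in wild type and 12 higher and 12 lower in the knockdown, with genes averaging under 5 CPM left out 12 and 9, and 13 and 12, and with chromosome medians removed 11 and 9, and 11 and 14. The split of all genes tested moved too. With library totals alone 5217 were higher and 4156 lower in wild type, in place of 4735 and 4799. In the knockdown 5227 were higher and 4241 lower, in place of 4579 and 4955. With chromosome medians removed 5162 of all genes were higher and 4103 lower in wild type, and 5130 and 3779 in the knockdown. With genes averaging under 5 CPM left out, 3678 of 11685 genes were higher and 3570 lower in wild type. In the knockdown 3754 were then higher and 3624 lower. The culture comparisons share their libraries with the knockdown comparisons above, and in each gene the values are the same ones read across the other way.

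CDK1 was at 184, 192 and 169 CPM in adherent and at 270, 259 and 285 CPM in suspension wild-type cells (0.58, SE 0.07, adjusted p = 1.12e-06). In knockdown cells it was at 167, 158 and 149 CPM against 233, 257 and 240 CPM (0.62, SE 0.07, adjusted p = 4.45e-07). All 6 suspension libraries were above all 6 adherent libraries. Its cyclin partners did not follow: CCNB1 was at -0.11 in wild type and 0.06 in the knockdown, CCNB2 at 0.01 and -0.08, none past the threshold, and CCNA2 fell by 0.21 in wild type (adjusted p = 0.0198) and by 0.48 in the knockdown (adjusted p = 1.63e-05). The phosphatase CDC25C rose in both lines (0.31 and 0.32, adjusted p = 0.00625 and 0.00646), and CDC25B, which acts earlier at the centrosome, was at 0.15 in wild type (adjusted p = 0.0663) and rose by 0.16 in the knockdown (adjusted p = 0.0456, lost under 8 of 23 alternatives).

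FOXM1, a transcription factor of many of these genes, was lower in suspension where CDK1 was higher. It read 153, 134 and 139 CPM in adherent and 104, 103 and 100 CPM in suspension wild-type libraries (-0.47, SE 0.07, adjusted p = 7.19e-06). In the knockdown it read 166, 153 and 160 CPM against 96.1, 99.6 and 104 CPM (-0.68, SE 0.07, adjusted p = 7.84e-08). The suspension libraries of both lines were all below the adherent ones. PLK1 was lower in suspension by 0.18 in wild type (adjusted p = 0.0243) and by 0.51 in the knockdown (adjusted p = 3.04e-06), and AURKA was at -0.10 in wild type (adjusted p = 0.174) and fell by 0.30 in the knockdown (adjusted p = 0.000519). The wild-type value of PLK1 turned to 0.04 with chromosome medians removed (adjusted p = 0.669).

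Securin and separase, an inhibitor and its protease, went opposite ways. PTTG1 rose from 83.4, 84.4 and 82.3 CPM to 106, 119 and 117 CPM in wild type (0.45, SE 0.07, adjusted p = 1.38e-05) and from 68.6, 63.5 and 66.5 CPM to 116, 115 and 122 CPM in the knockdown (0.83, SE 0.07, adjusted p = 6.25e-09). The increase in the knockdown, 1.78-fold, was the largest change of any member in these comparisons. ESPL1 read 167, 168 and 214 CPM in adherent and 137, 138 and 136 CPM in suspension wild-type libraries (-0.42, SE 0.10, adjusted p = 0.000963), and fell by 0.41 in the knockdown (SE 0.10, adjusted p = 0.00118). UBE2C rose by 0.47 in wild type (SE 0.08, adjusted p = 0.00011) and by 0.42 in the knockdown (SE 0.09, adjusted p = 0.000408), and CDC20, which with UBE2C serves the anaphase-promoting complex, fell by 0.26 and 0.36 (adjusted p = 0.00525 and 0.00034). The checkpoint kinase TTK fell in both lines (-0.26 and -0.38), BUB3 rose in both (0.20 and 0.31), BUB1 fell in wild type (-0.23, adjusted p = 0.0085) and was at -0.09 in the knockdown, and BUB1B and MAD2L1 did not pass in either line.

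CENPF, a large protein of the outer kinetochore, was at 436, 540 and 421 CPM in adherent and 351, 331 and 363 CPM in suspension wild-type libraries (-0.42, SE 0.09, adjusted p = 0.000363). In the knockdown it read 445, 422 and 453 CPM against 411, 378 and 350 CPM (-0.21, SE 0.09, adjusted p = 0.0398). Neither pair of groups overlapped, and the call in the knockdown was lost under 11 of 23 alternatives. NDC80 (0.26) and NUF2 (0.22) rose in wild type, with adjusted p = 0.0255 and 0.0194, and were at 0.20 and 0.09 in the knockdown without passing. The centromere histone CENPA fell in the knockdown (-0.35, adjusted p = 0.0107) and was at -0.15 in wild type, and TOP2A (0.18 and 0.13), MKI67 (-0.23 and -0.14) and the kinesin CENPE (-0.09 and -0.07) did not pass in either line.

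The passenger subunits were lower in suspension knockdown cells. INCENP fell by 0.75 (SE 0.06, adjusted p = 1.13e-08), BIRC5 by 0.61 (SE 0.07, adjusted p = 9.47e-07) and AURKB by 0.42 (SE 0.08, adjusted p = 0.000135), while CDCA8 was at -0.03 and did not pass. In wild type BIRC5 fell by 0.25 (SE 0.07, adjusted p = 0.00658), and AURKB (-0.17), INCENP (-0.08) and CDCA8 (-0.01) did not pass. The median of chromosome 11 was -0.37 and of chromosome 17 -0.36 in the knockdown, and with chromosome medians removed INCENP (-0.36, adjusted p = 8.68e-05) and BIRC5 (-0.26, adjusted p = 0.00628) passed and AURKB (-0.06, adjusted p = 0.539) did not.

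Among spindle genes KIF2C rose by 0.28 in wild type and 0.45 in the knockdown (SE 0.06 and 0.07, adjusted p = 0.00118 and 1.19e-05), and HMMR by 0.37 and 0.38 (SE 0.11 in each, adjusted p = 0.00618 and 0.00537). HMMR read 49.7, 67.8 and 47.1 CPM in adherent and 70.6, 69.1 and 73.3 CPM in suspension wild-type libraries, with replicate 2 of the adherent group close to the suspension values. NUSAP1 rose in the knockdown (0.51, SE 0.12, adjusted p = 0.00171) and was at -0.02 in wild type. KIF11 (-0.16, adjusted p = 0.0495) and TPX2 (-0.19, adjusted p = 0.0342) fell in wild type, were at -0.03 and -0.15 in the knockdown without passing, and lost the wild-type call under 20 and 14 of 23 alternatives. KIF20A fell in both lines (-0.28 and -0.21, adjusted p = 0.0013 and 0.0092), as did ECT2 (-0.23 and -0.50, adjusted p = 0.0144 and 1.69e-05), and KIF4A, KIF23, ANLN and PRC1 did not pass in either. With chromosome medians removed ECT2 passed in neither line (-0.12, adjusted p = 0.207, and -0.18, adjusted p = 0.0539).

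**Figure D5:**
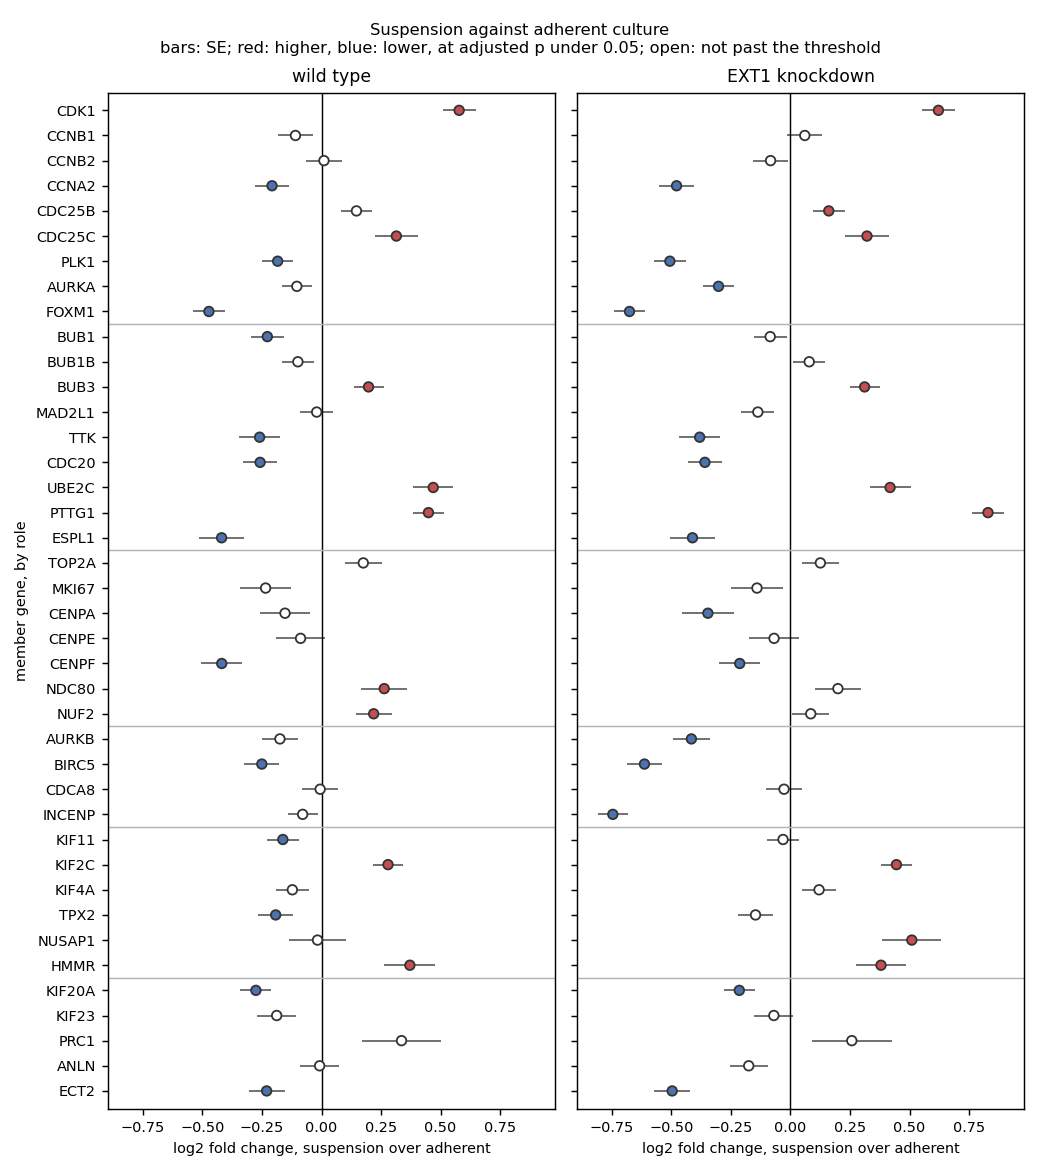
Log2 fold change of suspension over adherent culture in wild-type (left) and knockdown cells (right) for the 40 members, with the SE as bars and filled points for those past an adjusted p of 0.05. CDK1, CDC25C, BUB3, UBE2C, PTTG1, KIF2C and HMMR are red in both panels.

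The culture comparisons of the 2 lines share no libraries. The members that rose in both lines were the 7 genes CDK1, CDC25C, BUB3, UBE2C, PTTG1, KIF2C and HMMR, of 9 that rose in each line. Of the 17115 genes tested 3015 (17.6%) rose in both, of 4735 that rose in wild type and 4579 in the knockdown. As a share of all 40 members, the 7 were near that background. The 10 that fell in both were CCNA2, PLK1, FOXM1, TTK, CDC20, ESPL1, CENPF, BIRC5, KIF20A and ECT2, of 13 in wild type and 14 in the knockdown. Of all genes tested 3095 (18.1%) fell in both, of 4799 that fell in wild type and 4955 in the knockdown. With chromosome medians removed those 7 still rose in both lines, joined by CDC25B, TOP2A and NDC80, and of those 10 only FOXM1, CDC20, ESPL1, CENPF and KIF20A still fell in both, joined by BUB1 and INCENP. CCNA2, PLK1, TTK, BIRC5 and ECT2 then missed the threshold in at least 1 line. The calls over all genes tested moved in the same direction. In wild type higher calls went from 4735 to 5162 and lower calls from 4799 to 4103. In the knockdown they went from 4579 to 5130 and from 4955 to 3779. Genes that rose or fell in both lines under that setting were not counted over all genes. No member was called in opposite directions. Across all 5 comparisons 32 members were called at least once, against 77.5% of all genes, a share near the background, and MAD2L1, TOP2A, MKI67, CENPE, CDCA8, KIF23, PRC1 and ANLN never.

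Related genes outside the 40 were read from 9 lists. A percentage beside the counts of a list is its share past the threshold. Of all genes tested 55.7% passed in each culture comparison. With the knockdown 27.1% of all genes passed in adherent and 20.9% in suspension culture. Condensin and cohesin genes, which compact chromosomes and hold sisters together, were lower in suspension: of 22 genes 0 rose and 15 fell in wild type (median -0.30) and 0 rose and 16 fell in the knockdown (median -0.33), against the 28% and 29% of all genes that fell. The cohesin subunit SMC3 (-0.72), its regulator PDS5B (-0.59) and STAG1 (-0.58) had the largest changes in wild type, and PDS5B (-0.93), STAG1 (-0.73) and the cohesin loader NIPBL (-0.71) in the knockdown. Of these genes 4 rose and 3 fell (31.8%) in the knockdown in adherent culture, and 2 rose and 4 fell (27.3%) in suspension. SMC4, a condensin core subunit, was 0.45 higher in adherent knockdown cells (adjusted p = 0.000386), and SMC1A of cohesin 0.41 lower in suspension knockdown cells on the log2 scale (-0.41, adjusted p = 0.000291).

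Of the 21 genes of the MuvB, B-MYB, E2F and pocket protein list 2 rose and 14 fell in suspension in wild type (76.2%, median -0.27) and 2 rose and 11 fell in the knockdown (61.9%, median -0.23). E2F3 fell by 0.72 and 0.70 and its dimer partner TFDP1 by 0.56 and 0.66, and E2F5 fell by 0.97 in the knockdown. With the knockdown, 4 rose and 5 fell (42.9%) in adherent culture and 1 rose and 4 fell (23.8%) in suspension. TFDP2 rose in both (0.39 and 0.39), and E2F8, a repressor of the E2F family, was higher in adherent (0.43, adjusted p = 0.00108) and lower in suspension knockdown cells (-0.26, adjusted p = 0.0397). The highest log2 fold change of this list with the knockdown in adherent culture was 0.67, in another gene.

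CDKN1A, the CDK inhibitor p21, had the largest change in the 9 lists. It read 57.5, 53.1 and 76.1 CPM in adherent and 264, 280 and 267 CPM in suspension wild-type libraries (2.12, SE 0.10, adjusted p = 3.81e-12). In the knockdown it read 42.2, 44.5 and 40.1 CPM against 194, 208 and 217 CPM (2.29, SE 0.10, adjusted p = 1.54e-12). Suspension libraries of either line were all far above the adherent ones, and knockdown libraries were below wild type in both cultures (-0.56, adjusted p = 0.000446, and -0.39, adjusted p = 0.00622). Of the 8 inhibitors 4 rose and 2 fell (75%) in suspension in wild type and 1 rose and 1 fell (25%) in the knockdown. CDKN2B rose with the knockdown in both cultures (0.70 and 0.50), and of the 8 inhibitors 2 rose and 1 fell (37.5%) in adherent and 1 rose and 3 fell (50%) in suspension knockdown cells. The lowest log2 fold change of the inhibitors with the knockdown in suspension was -1.63, in a gene not named here.

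Of 34 DNA replication genes, a group that peaks earlier in the cycle, 3 rose and 20 fell in suspension in wild type (67.6%, median -0.26) and 8 rose and 12 fell in the knockdown (58.8%, median -0.09). Thymidine kinase TK1 fell by 0.84 and 1.04 in the lines, while thymidylate synthase TYMS rose by 0.68 in wild type (adjusted p = 6.03e-07). With the knockdown 1 rose and 10 fell (32.4%) in adherent cells, led by GINS1 (-0.44) and RRM2 (-0.41), and 5 rose and 2 fell (20.6%) in suspension, led by UHRF1 (0.35). Of the 8 G1 cyclins and CDKs 0 rose and 4 fell (50%) in suspension in wild type and 2 rose and 2 fell (50%) in the knockdown, with cyclin D1 (CCND1) at -0.74 and -0.67, and the knockdown gave 0 and 1 (12.5%) in adherent and 2 and 0 (25%) in suspension cells.

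The other 4 lists divided in both directions. Of 30 further kinetochore and centromere genes 4 rose and 9 fell (43.3%) in suspension in wild type and 6 rose and 10 fell (53.3%) in the knockdown, led by CENPH, which rose by 1.13 and 1.37 (adjusted p = 1.25e-08 and 1.18e-09). CENPI was 0.87 lower on the log2 scale in suspension knockdown than in wild-type suspension cells (-0.87, SE 0.10, adjusted p = 7.8e-06). This list had 1 rise and 5 falls (20%) with the knockdown in adherent and 0 rises and 4 falls (13.3%) in suspension cells. Of 19 entry and exit regulators 4 rose and 6 fell (52.6%) in suspension in wild type and 7 rose and 7 fell (73.7%) in the knockdown, and with the knockdown 4 rose and 3 fell (36.8%) in each culture. CDC25A, a CDK phosphatase of earlier phases, fell in suspension in both lines (-0.64 and -0.57), and MASTL, the Greatwall kinase, rose in wild type (0.50). Of 17 genes of the anaphase-promoting complex 2 rose and 5 fell (41.2%) in wild type and 3 rose and 5 fell (47.1%) in the knockdown, with CDC27 lower in both (-0.49 and -0.58), and the knockdown gave 2 rises and 4 falls (35.3%) in adherent and 1 rise and 2 falls (17.6%) in suspension cells. FBXO5, an inhibitor of that complex, was lower in the knockdown in both cultures (-0.39 and -0.27). Log2 fold changes in this list ran from -0.49 to 0.85 between cultures in wild type and from -1.18 to 0.45 in the knockdown. With the knockdown they ran from -0.39 to 0.62 in adherent and from -0.78 to 0.34 in suspension cells. Of 27 other spindle and cytokinesis genes 4 rose and 8 fell (44.4%) in wild type and 5 rose and 10 fell (55.6%) in the knockdown, with the pericentrin gene PCNT lower in both (-0.996 and -0.69), and the knockdown gave 4 rises and 3 falls (25.9%) in adherent and 2 rises and 4 falls (22.2%) in suspension cells.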

How the data were processed

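Polyadenylated RNA of 12 HEK293 libraries in 4 groups of 3 was analysed, grouped by the sample titles. The deposited table holds whole-number read counts per gene, for which the submitters' processing notes name HISAT2, without a version, featureCounts 1.5.0 and GRCh38. The authors' FPKM values equal those computed from the counts and the deposited gene lengths times 1 constant per library, between 0.942 and 1.029. The annotation release and strand setting were not found in the sources used here, and no sample column went unused.

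The tests used edgeR 4.0.16 (R 4.3.3): filterByExpr by group (17115 genes, 99.9% of reads), TMM scaling, 1 mean per group fitted to all 12 libraries, quasi-likelihood F-tests of 5 contrasts and Benjamini-Hochberg adjustment over all genes tested, at 0.05. SE is the absolute log2 fold change over the square root of F. CPM is TMM-scaled, given per library. Intervals for counting error are not given, since every named value comes from replicated libraries. Alternatives used limma 3.58.1 and DESeq2 1.42.0, other scalings and filters, log2(FPKM + 1) and log2(FPKM + 0.1), chromosome medians (over genes averaging 5 CPM or more) removed, a replicate term, and each library left out. No libraries of a group were duplicates (chi-square per degree of freedom 2.5 to 23.6). The fit was also run on simulated counts with known changes in the adherent knockdown group alone and without chromosome-wide shifts. The outcome of that run is not reported here.

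Members and lists were chosen with earlier results of these data known. Genes named are, per comparison, the 5 largest rises and falls among members past the threshold, CDK1, CCNB1, PLK1, MKI67, TOP2A, EXT1 and up to 3 genes per related list. Other members were named to account for all 40, after their values were seen.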

Additional observations from a re-analysis of the deposited data

Results flagged for a closer look

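The knockdown effect differed between the cultures, by the test of the difference itself, for 5 members, or 12.5%, against 24% of all genes tested. It was higher in suspension than in adherent culture for PTTG1, by 0.38 on the log2 scale, and for NUSAP1, by 0.53. It was lower in suspension for PLK1, with a difference of -0.32, for BIRC5, with -0.36, and for INCENP, with -0.67. Of these, PLK1 alone passed with chromosome medians removed (-0.48), where FOXM1 passed in addition (-0.34).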

How the results depend on the processing

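Taken separately, the count of members called in either culture comparison stayed within 1.5 times under every alternative run. The share of all genes passing was 55.7% in each and fell to 25.9% in each without the low-count filter. With genes averaging under 5 CPM left out it was 62% in wild type and 63.1% in the knockdown. The count of 16 for knockdown in adherent culture became 9 when only the libraries compared were fitted, and ranged from 10 to 21 when single libraries were left out. The share of all genes passing went from 27.1% to 19.2% and to between 17.9% and 29%. The count of 11 for knockdown in suspension ranged from 6 to 15 with single libraries left out, and the share of all genes from 12.6% to 26.8%. The count of 5 for the difference between the knockdown effects became 2 with chromosome medians removed, and ranged from 3 to 8 with single libraries left out. The share of all genes was then 14.2%, and 17.9% to 28.9%. PLK1 in wild-type culture turned from -0.18 to 0.0359 with chromosome medians removed, the single change of sign among called members. The causes were not tested. Calls kept under all alternatives numbered 6 of 16 and 3 of 11 for knockdown in adherent and suspension culture, 12 of 22 and 16 of 23 for culture in wild type and knockdown, and 0 of 5 for the difference. Kept calls were not counted over all genes.

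A replicate block gave 15 and 10 members for knockdown in adherent and suspension culture, 21 and 23 for culture in wild type and knockdown, and 5 for the difference. In the same order 26.2%, 20.1%, 55.4%, 55.3% and 23.5% of all genes passed. Replicate numbers did not pair the samples: deviations correlated by over 0.1 in 7 of 18 same-numbered pairs of libraries (-0.29 to 0.335), and 4 of 12 libraries had their closest library of another group under their own number.

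CCAAT and CHR matches were letters only, and TTTGAA without TTCGAA was present in 24 instead of 26 members. Every member but PRC1 had at least 159 reads in each library, and the spread between libraries was widest in wild-type adherent cells.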
